A study of Homo sapiens with 12 samples.

Results

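The response to ATR inhibition was compared between both uveal melanoma cell lines of the study, gene by gene, as the log2 change in 92.1 minus the log2 change in MP38. The genes described are the 10190 with a mean of at least 5 CPM (counts relative to library size, corrected by TMM factors for the makeup of each library) in each line, out of 38997 features present in both count tables and 24958 tested. Poly(A) RNA was sequenced from each line after 72 hours with the solvent DMSO or with VE-822 (berzosertib), which inhibits the kinase ATR, with 3 libraries in each of the 4 groups. Both lines come from uveal melanoma, a tumour of the pigment cells of the eye, and each stands for 1 cell line only. The concentration of VE-822 was adjusted to the line, aiming at about 40% viability, and its value is not in the labels, so an effect of the dose and an effect of the line cannot be told apart. Whether replicate libraries stem from different cultures is not stated, and all p-values therefore reflect no more than the spread between these 12 libraries, part or all of which may be technical.

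ATR is the kinase that senses stalled replication forks and, through CHEK1 and WEE1, holds back origin firing and entry into mitosis. Genes of the cell cycle are transcribed in waves: E2F factors serve the genes of replication, and a later wave, driven by MYBL2 and FOXM1 with the MuvB complex, serves the genes of mitosis. When p53 is active, its target CDKN1A (p21) blocks cyclin-dependent kinases, and the DREAM complex of pocket proteins, E2F4 and MuvB then represses both waves.

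The MP38 libraries held 54415628 to 63638976 counts each, and the deeper 92.1 libraries 112374503 to 137664800. Most pigment cell markers were high in both lines: MITF had 117 to 174 CPM in MP38 and 344 to 489 in 92.1, and SOX10 had 483 to 603 and 338 to 451. PMEL had 1807 to 2899 and 6662 to 7469, MLANA 136 to 361 and 378 to 480, and TYR 762 to 897 and 110 to 121. TYRP1 was at 25.4 to 78 CPM in MP38 and far higher in 92.1. DCT was at 393 to 641 CPM in MP38 and at 4.03 to 13.4 in 92.1. The defining markers of fibroblasts, blood, endothelium and epithelium were at or near 0, with COL1A1 highest in 92.1 at up to 5.42 CPM and VWF highest in MP38 at up to 3.35. Of the markers of retinal pigment epithelium, RPE65 and TTR were near 0, while BEST1 had 225 to 304 CPM in MP38 and 32.4 to 61.1 in 92.1, and RLBP1 22.3 to 41.2 and 4.09 to 4.39. DMSO library 3 of 92.1 stood apart from the other libraries. Its chi-square per gene over the 10190 genes was 185 and 189 against DMSO libraries 1 and 2, which differed from each other by 9.19, and the other replicate pairs differed by 2.99 to 15. Results that move with this library are given with and without it.

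The difference between lines was called in more of these genes than it was not. Of the 10190 genes, 3444 were called in both lines, and in 1490 of these the change had the same sign. Calls were made at an adjusted p under 0.05 in edgeR's quasi-likelihood test of all 12 libraries, with Benjamini-Hochberg adjustment over the 24958 genes tested. The difference between lines was called in 40.9% of all genes tested, higher in 92.1 in 22.1% and lower in 18.8%. Higher ones were thus 54% of these calls, but 49.1% with RLE factors and 49.5% without DMSO library 3 of 92.1. Among the 10190 genes it was higher in 92.1 in 2364 (23.2%) and lower in 3786 (37.2%), and it was not called in 4040. Without DMSO library 3 of 92.1 these shares were 25.1% higher and 48.3% lower, of 10199 genes. In 92.1, 2243 genes rose (22%) and 3505 fell (34.4%), and in MP38 3301 rose (32.4%) and 2567 fell (25.2%). The median log2 change was 0.03 in MP38 and -0.05 in 92.1. Across the 10190 genes the changes of both lines had a Pearson r of -0.15 and a Spearman rho of -0.09, a description over genes that share the same 12 libraries.

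Sorted by what was called, 1954 genes moved in opposite directions: 1255 rose in MP38 and fell in 92.1 (12.3%), and 699 fell in MP38 and rose in 92.1 (6.86%). A further 1823 changed in MP38 alone and 1673 in 92.1 alone, each with a called difference between lines. The same direction with no called difference, referred to as alike, held for 954 genes (9.36%), 435 higher and 519 lower. The same direction with a called difference held for 536. The remaining genes were 1232 called in 1 line with no called difference, 1854 called nowhere, and 164 with a called difference alone. A missed call does not show that a gene responded equally in both lines. The share of opposite genes that rose in MP38 was 64.2% with TMM factors, 72.3% with RLE factors, 71.3% with TMM computed in each line alone and 51.2% with library size only. Without DMSO library 3 of 92.1, 2068 and 868 genes were opposite, with 1252 of the 1255 and 625 of the 699 kept among them, and 1152 genes changed the same way to unequal degrees. At the edge of the level rule, PDZD7 (16.4 CPM in MP38, 5.0 in 92.1) and TSPAN5 (5.01 and 11.7) were just inside, and DIPK1A (6.43 in MP38) and GLYCTK (7.55 in MP38), with under 5 CPM in 92.1, just outside.

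**Figure D1:**
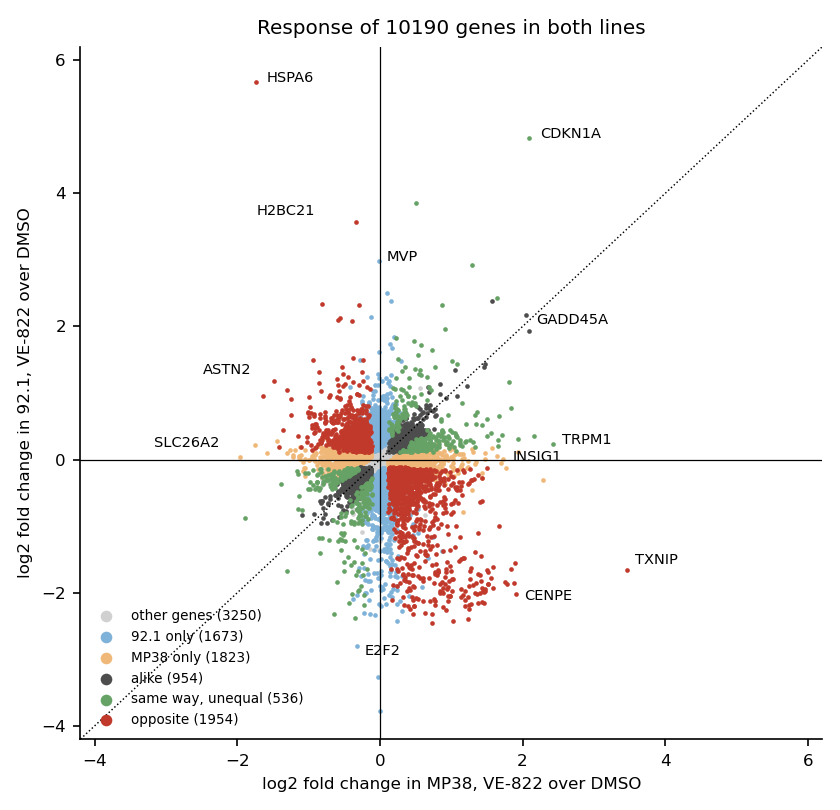
Log2 change in VE-822 against DMSO in MP38 (x axis) and in 92.1 (y axis) for each of the 10190 genes, coloured by class, with the dotted line marking equal change. The 1954 opposite genes fill the upper left and lower right, with TXNIP and CENPE at the lower right and HSPA6 at the upper left.

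**Figure D2:**
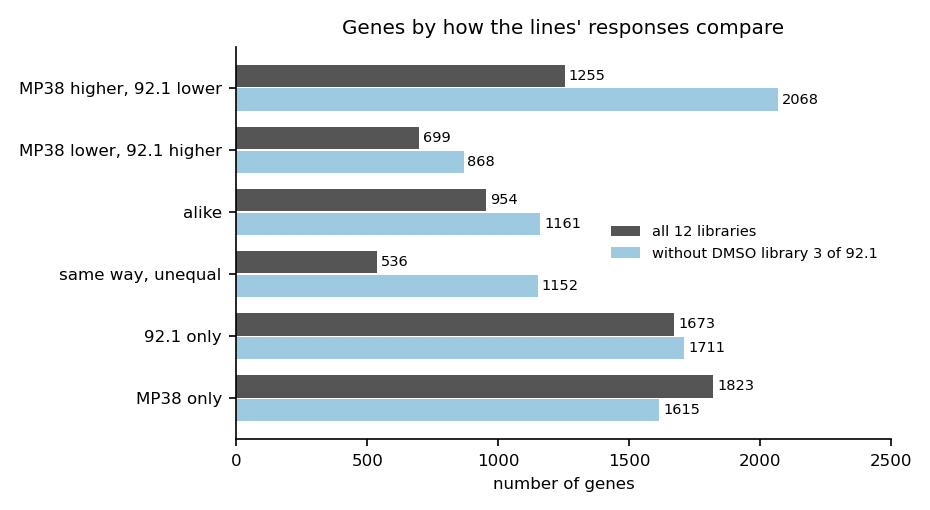
Number of genes in each response class with all 12 libraries (dark bars) and without DMSO library 3 of 92.1 (light bars). Genes that rose in MP38 and fell in 92.1 go from 1255 to 2068, and those with unequal changes in the same direction from 536 to 1152.

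Genes of mitosis rose in MP38 and fell in 92.1. All 39 measured members of the mitosis and cytokinesis list, which holds kinases, kinesins, centromere and spindle proteins, were opposite in this direction, against 12.3% of the 10190 genes. Their median log2 change was 1.25 in MP38 and -1.93 in 92.1, and their median difference was -3.18, against -0.09 over the 10190 genes. The list was chosen with earlier results of these data known, so its count describes these libraries. With library size only in place of TMM, 38 of the 39 remained opposite, and between 37 and 39 did so when any 1 library other than DMSO library 3 of 92.1 was left out.

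The levels of the list crossed. In DMSO its geometric mean was 26.6, 26.2 and 26.5 CPM in MP38 and 92, 91 and 89.8 in 92.1. In VE-822 it was 61, 61 and 60 CPM in MP38 and 27.1, 26 and 22.8 in 92.1. All 39 genes were higher in 92.1 than in MP38 in DMSO, and 2 of the 39 were in VE-822. Counts were deposited for each line apart, and depth differed by line. For levels compared between lines, here and below, a technical effect and an effect of the line cannot be told apart. DMSO library 3 of 92.1 was level with the other DMSO libraries here.

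**Figure D3:**
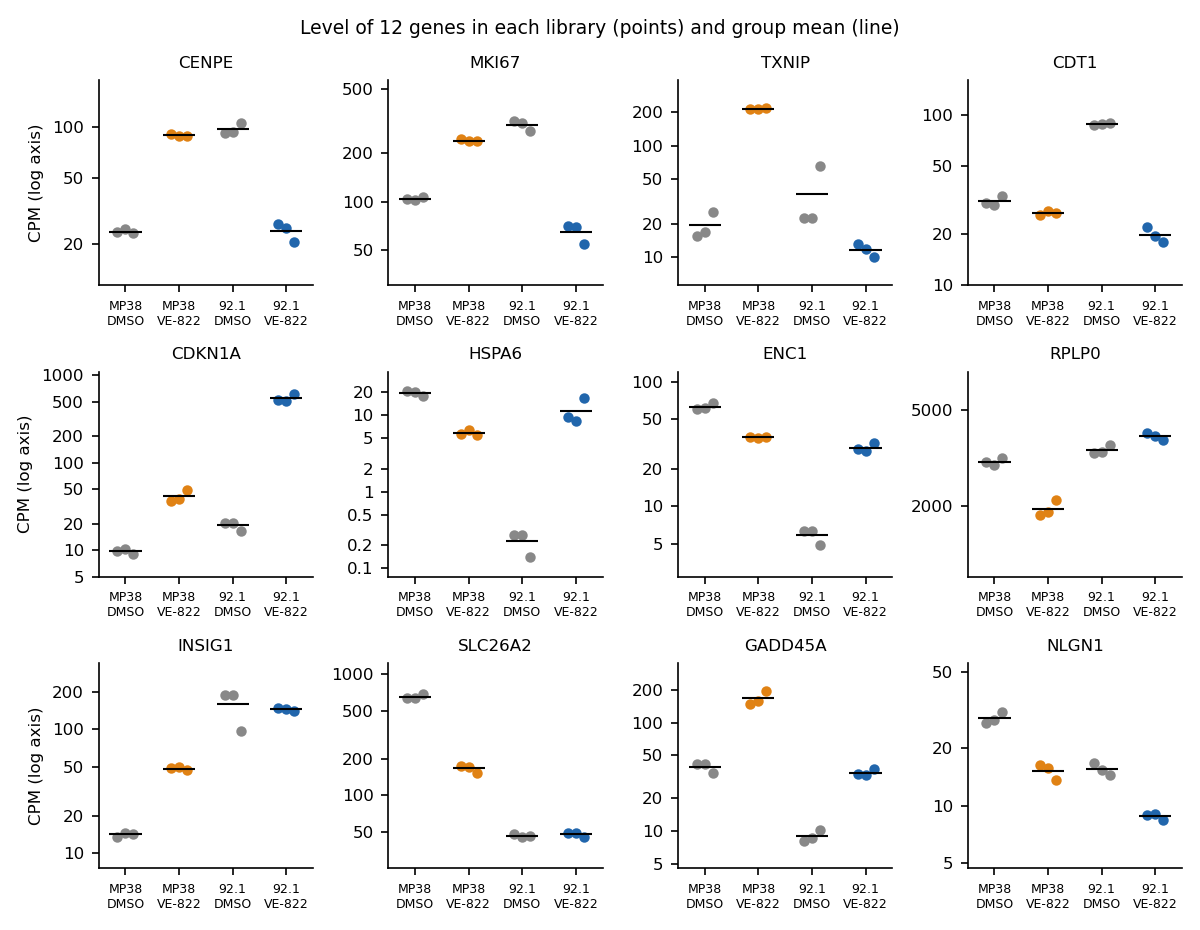
CPM on a log axis in each of the 12 libraries (points, in library order) with the group mean (line) for 12 genes described in the text. For CENPE, MKI67 and TXNIP the VE-822 libraries lie above DMSO in MP38 and below it in 92.1, while GADD45A rises and NLGN1 falls in both lines.

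CENPE, a kinesin that carries chromosomes to the metaphase plate, had 23.5, 24.6 and 23.3 CPM in the DMSO libraries of MP38 and 91.2, 88.5 and 88.1 in the VE-822 libraries. In 92.1 it had 91.7, 93.4 and 106 CPM in DMSO and 26.4, 25 and 20.5 in VE-822. Treated and control libraries did not overlap in either line, and the treated libraries were the high ones in MP38 and the low ones in 92.1. Its log2 change was 1.91 ± 0.08 (SE) in MP38 and -2.01 ± 0.08 in 92.1, a difference of -3.92 ± 0.11 (edgeR, Benjamini-Hochberg adjusted p = 6.64e-13).

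MKI67, which codes for the proliferation antigen Ki-67, had 104, 102 and 108 CPM in DMSO and 243, 237 and 237 in VE-822 in MP38. The same gene went from 314, 306 and 275 CPM to 70.6, 70.1 and 54.8 in 92.1. The treated libraries of MP38 thus rose toward the controls of 92.1 but stayed under them. Those of 92.1 fell below the controls of MP38. The difference was -3.39 ± 0.11 (edgeR, adjusted p = 2.64e-12). PLK1, the polo-like kinase of spindle assembly and mitotic entry, had 33.9, 34.1 and 33.5 CPM in the DMSO and 96, 102 and 106 in the VE-822 libraries of MP38. It had 78.4, 80 and 85.7 CPM in the DMSO and 27.5, 27 and 25.1 in the VE-822 libraries of 92.1. Neither line's groups overlapped, and the difference was -3.20 ± 0.08. KIF20A, a kinesin of cytokinesis, differed by -3.65 ± 0.08, BUB1, a kinase of the spindle checkpoint, by -3.59 ± 0.10, and TPX2, which activates AURKA on the spindle, by -3.21 ± 0.08. CCNB1, the mitotic cyclin B1, showed a smaller difference of -2.72 ± 0.07.

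Among the 1255 genes that rose in MP38 and fell in 92.1, 59 had log2 changes of at least 1 in size in both lines. Of these, 27 were in the mitosis list, 29 were in any of 6 lists of the cell cycle and DNA repair, and 30 were in none. The lists are not complete, so a gene in none of them can still belong to the cell cycle. Among the 10 with the largest differences, SPC25, SKA1 and NCAPG, parts of the kinetochore, its microtubule complex and condensin, differed by -3.64 ± 0.15, -3.53 ± 0.12 and -3.60 ± 0.09. DEPDC1 (-3.74 ± 0.12), IQGAP3 (-3.57 ± 0.11) and CDCA2 (-3.51 ± 0.11) were in the same range. SPC25 was low, with 3.62, 3.91 and 3.65 CPM in DMSO and 9.13, 9.14 and 8.05 in VE-822 in MP38, against 16.4, 16.2 and 14.8 in DMSO and 3.32, 3.19 and 2.43 in VE-822 in 92.1. It reached the level rule through VE-822 in MP38 and through DMSO in 92.1, so the rule favoured both of its changes.

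The largest opposite difference in this direction was in TXNIP, an arrestin-like protein that binds thioredoxin and limits glucose uptake. It had 15.6, 16.8 and 25.6 CPM in DMSO and 215, 213 and 216 in VE-822 in MP38, and 22.6, 22.5 and 66.2 in DMSO and 13.2, 11.8 and 10.1 in VE-822 in 92.1. The VE-822 libraries of MP38 were the highest of all 12, and DMSO library 3 was the highest of 92.1. The difference was -5.14 ± 0.46 (edgeR, adjusted p = 2.42e-07), and without DMSO library 3 of 92.1 it was -4.46 ± 0.15, with a 92.1 change of -0.99 in place of -1.67. The related arrestin ARRDC3 moved otherwise: it fell in MP38 by 0.82 with 0.20 in 92.1, a change that was called higher when DMSO library 1 or 2 of 92.1 was left out. MXD4, a MAX partner that opposes MYC, rose in 92.1 by 1.09 with -0.18 in MP38.

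Promoters are shown for these genes because the mitotic wave is known to act through a short element, the cell cycle genes homology region (CHR, letters TTTGAA), often downstream of CCAAT boxes, whereas replication genes are known to carry E2F sites (searched as TTTCCCGC or TTTGGCGC). All sequences are the 150 bases before the gene's start in RefSeq, build GRCh38.p14, 5′ to 3′ in the direction of transcription, and capitals mark these letters on either strand (CCAAT reads ATTGG and TTTCCCGC reads GCGGGAAA on the other strand). PLK1, CCNB2, KIF23 and MKI67 are genes of mitosis and proliferation, CDT1, DTL and MCM6 belong to replication, and CENPE, with the largest difference of a mitosis gene described here, held none of these letters in the window. CCNB2 and MCM6 were chosen after their values were seen.
PLK1: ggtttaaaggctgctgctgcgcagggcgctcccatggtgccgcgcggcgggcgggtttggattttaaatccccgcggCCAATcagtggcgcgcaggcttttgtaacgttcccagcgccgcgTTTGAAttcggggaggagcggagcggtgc
CCNB2: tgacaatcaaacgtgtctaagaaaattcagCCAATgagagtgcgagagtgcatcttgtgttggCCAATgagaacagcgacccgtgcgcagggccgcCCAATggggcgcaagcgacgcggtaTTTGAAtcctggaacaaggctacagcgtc
KIF23: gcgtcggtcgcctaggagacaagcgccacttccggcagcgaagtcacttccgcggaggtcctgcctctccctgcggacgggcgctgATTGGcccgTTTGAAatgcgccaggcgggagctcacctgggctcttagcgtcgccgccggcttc
MKI67: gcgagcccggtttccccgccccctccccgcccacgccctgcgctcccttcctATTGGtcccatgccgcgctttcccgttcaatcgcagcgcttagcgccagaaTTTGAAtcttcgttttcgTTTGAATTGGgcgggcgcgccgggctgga
CDT1: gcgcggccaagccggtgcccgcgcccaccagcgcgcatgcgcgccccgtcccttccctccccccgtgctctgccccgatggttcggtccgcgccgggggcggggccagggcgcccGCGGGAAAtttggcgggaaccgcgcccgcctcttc
DTL: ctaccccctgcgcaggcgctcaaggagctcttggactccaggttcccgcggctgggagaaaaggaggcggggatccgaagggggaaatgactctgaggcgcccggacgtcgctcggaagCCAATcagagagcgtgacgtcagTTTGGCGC
MCM6: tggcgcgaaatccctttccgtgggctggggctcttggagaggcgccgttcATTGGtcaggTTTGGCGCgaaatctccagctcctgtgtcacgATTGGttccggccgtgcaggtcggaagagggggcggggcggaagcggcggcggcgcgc
CENPE: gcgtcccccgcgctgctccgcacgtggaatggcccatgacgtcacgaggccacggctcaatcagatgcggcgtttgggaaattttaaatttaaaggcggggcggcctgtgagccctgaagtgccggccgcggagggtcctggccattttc

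The windows lie at chr16:23678739-23678888 on the plus strand for PLK1, chr15:59104996-59105145 (plus) for CCNB2, chr15:69414199-69414348 (plus) for KIF23 and chr10:128126424-128126573 (minus) for MKI67. Those of the replication genes lie at chr16:88803639-88803788 (plus) for CDT1, chr1:212035598-212035747 (plus) for DTL and chr2:135876444-135876593 (minus) for MCM6, and that of CENPE at chr4:103198344-103198493 (minus). The TTTGAA letters began 29 bases before the start in PLK1 and CCNB2, 55 in KIF23, and 47 and 29 in MKI67. CCNB2 held 3 CCAAT boxes, 120, 87 and 54 bases before the start, and in MKI67 the later TTTGAA overlapped a CCAAT box.

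TTTGAA was counted on both strands in windows from 250 bases before to 50 after the start. It was in 15.4% of all 27305 RefSeq promoters of that length and in 9.30% of the 8171 genes studied here that had a promoter in the table. Of the opposite genes that rose in MP38, 17.9% held it (185 of 1033), and of those with a difference of at least 2 in size, 51.2% did (64 of 125). Of the opposite genes that fell in MP38, 7.18% held it (38 of 529). In the mitosis list 72.7% held TTTGAA (24 of 33 with a promoter in the table) and 60.6% held it together with CCAAT, while 5.56% of the replication list (2 of 36) and 0 of 20 p53 targets held TTTGAA. The CCAAT box alone was in 81.8% of the mitosis list, 52.8% of the replication list and 55% of the p53 targets. It was in 37.5% of the 8171 genes studied and 35.7% of all promoters. The E2F letters were in 41.7% of the replication list (15 of 36), 3.03% of the mitosis list and 15% of the p53 targets. They were in 4% of the 8171 genes studied and 2.31% of all promoters. A match of letters is a description of the window, not evidence of a bound site.

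**Figure D4:**
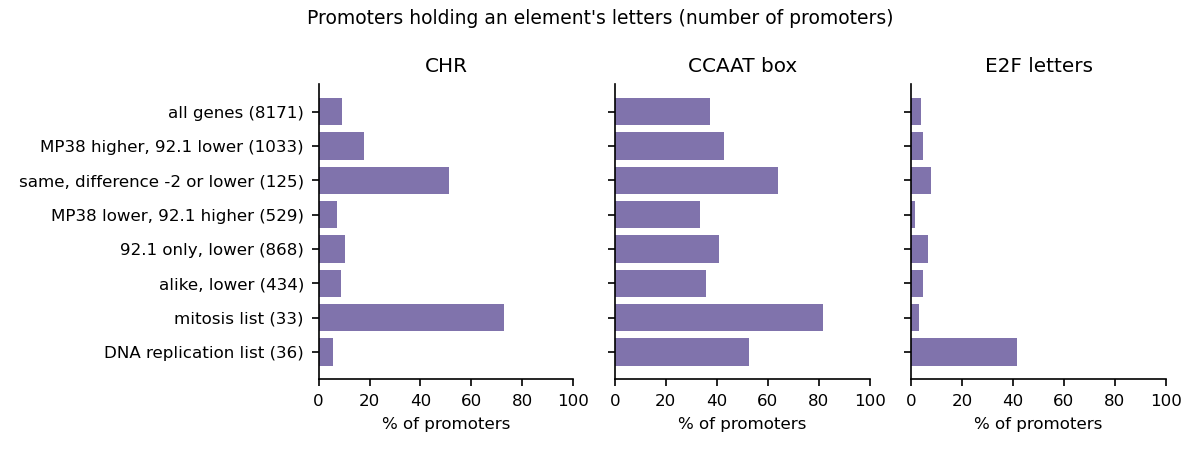
Percent of promoters that hold TTTGAA, the CCAAT box or the E2F letters in each gene group, with the number of promoters in brackets. TTTGAA reaches 72.7% in the mitosis list and 5.56% in the replication list, and the E2F letters reach 41.7% in the replication list.

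Genes of DNA replication fell in 92.1 and showed mostly small changes in MP38. Of the 41 measured members of the replication and E2F target list, 40 had a called difference, all lower in 92.1, against 37.2% of the 10190 genes. Their median log2 change was 0.11 in MP38 and -1.63 in 92.1. By class, 20 fell in 92.1 alone (10.5% of the 10190 genes) and 13 rose in MP38 and fell in 92.1 (12.3%). Another 7 fell in both lines and further in 92.1, while 2.7% of the 10190 genes fell in both to unequal degrees. Without DMSO library 3 of 92.1 the counts of the list were 11, 19 and 12. Over all genes 2068 of 10199 then rose in MP38 and fell in 92.1. The geometric mean in MP38 lay between 28.4 and 29.8 CPM without and between 29.7 and 32.3 with the inhibitor, so treated and control libraries overlapped. In 92.1 it was 99.9, 98.9 and 76.4 CPM in DMSO and 32.5, 31.5 and 28.2 in VE-822. All 41 genes were higher in 92.1 than in MP38 in DMSO, and 20 of the 41 were in VE-822.

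CDT1, which licenses origins together with the MCM helicase, had 30.3, 29.6 and 33.2 CPM in the DMSO and 25.7, 27.2 and 26.6 in the VE-822 libraries of MP38. Its levels in 92.1 were 87.9, 89.2 and 90.1 CPM in DMSO and 21.8, 19.4 and 17.8 in VE-822. Both lines fell, MP38 by 0.23 and 92.1 by 2.18, a difference of -1.95 ± 0.09. The fall in MP38 lost its call when its DMSO library 3 or VE-822 library 1 was left out. DTL, whose ubiquitin ligase removes CDT1 in S phase, differed by -2.04 ± 0.18 and EXO1, a nuclease of mismatch repair and recombination, by -2.67 ± 0.17. EXO1 was called in 92.1 alone, and as opposite without DMSO library 3 of 92.1 (MP38 0.24). TK1, thymidine kinase, went with the mitosis genes: 25.2, 26 and 27 CPM in DMSO and 66.4, 64.7 and 65.7 in VE-822 in MP38, against 115, 122 and 96.4 in DMSO and 28.4, 29.4 and 25.1 in VE-822 in 92.1, without overlap in either line. It was the 1 replication list member among the 59 genes that changed by at least 1 in both lines.

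Homologous recombination and Fanconi anaemia genes followed the replication genes. Of 29 measured, 27 had a difference that was lower in 92.1 (37.2% of the 10190 genes) and 2 had none called, with medians of 0.02 in MP38 and -1.69 in 92.1. In 92.1 alone 20 fell, against 10.5% of the 10190 genes. BRCA1, which promotes resection and recombination, had 42.5, 41 and 40.4 CPM in DMSO and 56, 54.1 and 50.6 in VE-822 in MP38. In 92.1 BRCA1 had 85.3, 82.4 and 74.1 CPM and 21.2, 21.8 and 18.2. Groups did not overlap in either line, with changes of 0.37 ± 0.07 and -1.98 ± 0.07 and a difference of -2.35 ± 0.10 (edgeR, adjusted p = 3.43e-11). BRCA2, a mediator of strand exchange in recombination, differed by -2.63 ± 0.11 and UBE2T, the E2 enzyme of the Fanconi pathway, by -2.61 ± 0.09. FANCD2, its substrate, differed by -2.28 ± 0.09 with a change in MP38 of 0.17 ± 0.06 that lost its call in 5 of the settings that leave out 1 MP38 library. RAD54L, a DNA translocase of recombination, fell in 92.1 alone by 2.34.

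In the list of ATR pathway and checkpoint genes, 16 of 21 had a difference that was lower in 92.1 (37.2% of the 10190 genes), 1 had one that was higher (23.2%) and 4 had none called. The median change was 0.15 in MP38 and -1.17 in 92.1. ATR itself, the target of the drug, had 51, 50.8 and 51.5 CPM in DMSO and 43.8, 43.1 and 39.3 in VE-822 in MP38, against 48.8, 47.4 and 52.8 in DMSO and 48.7, 49.4 and 48.4 in VE-822 in 92.1. It fell in MP38 by 0.28 with -0.02 in 92.1, a difference of 0.26 ± 0.07 (edgeR, adjusted p = 0.0106), the 1 difference of the list that was higher in 92.1. That call was lost in 7 of the settings that leave out 1 library, at adjusted p-values of 0.050 to 0.105. CHEK1, the kinase downstream of ATR, had 14.8, 14.9 and 15.7 CPM in DMSO and 19.7, 20.3 and 18.6 in VE-822 in MP38, against 46.2, 47.4 and 38.1 in DMSO and 13.3, 12.9 and 10.8 in VE-822 in 92.1, a difference of -2.20 ± 0.12. WEE1 and PKMYT1, the kinases that restrain CDK1, differed by -1.71 ± 0.07 and -2.59 ± 0.12. The phosphatases CDC25C and CDC25B, which relieve that restraint, differed by -3.45 ± 0.15 and -1.65 ± 0.07, so that activators and restrainers of CDK1 moved the same way within each line.

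Several factors that drive these waves were opposite as well. Of 19 measured E2F factors, pocket proteins and MuvB partners, 14 had a difference lower in 92.1 (37.2% of the 10190 genes), 1 higher (23.2%) and 4 none called, with medians of -0.01 in MP38 and -0.66 in 92.1. MYBL2 had 38.8, 37 and 36.6 CPM in DMSO and 73.9, 74.3 and 74 in VE-822 in MP38, against 235, 234 and 166 in DMSO and 56.2, 52.2 and 45.5 in VE-822 in 92.1, a difference of -3.03 ± 0.15. FOXM1 differed by -2.61 ± 0.13, MYBL1 by -2.14 ± 0.12 and the repressor E2F7 by -2.04 ± 0.10, each higher in MP38 and lower in 92.1. E2F2, an activator, fell in 92.1 by 2.79 with -0.32 in MP38, and without DMSO library 3 of 92.1 it was called lower in both lines.

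Lamins and high mobility group proteins, structural parts of the nucleus and of chromatin, showed the same split: all 11 measured had a lower difference in 92.1 (37.2% of the 10190 genes) and 9 rose in MP38 and fell in 92.1 (12.3%), with medians of 0.37 in MP38 and -1.09 in 92.1. HMGB2, a DNA-bending protein of dividing cells, had 70.2, 70.1 and 71.2 CPM in DMSO and 111, 116 and 118 in VE-822 in MP38, against 216, 215 and 239 in DMSO and 57.5, 52.6 and 43.2 in VE-822 in 92.1. Its groups did not overlap, and its difference was -2.83 ± 0.11. LMNB1, which codes for lamin B1, differed by -2.14 ± 0.13. Its fall in 92.1 (-1.90 ± 0.09) was large, and its change in MP38 (0.24 ± 0.09) lost its call in 5 of the settings that leave out 1 library.

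**Figure D5:**
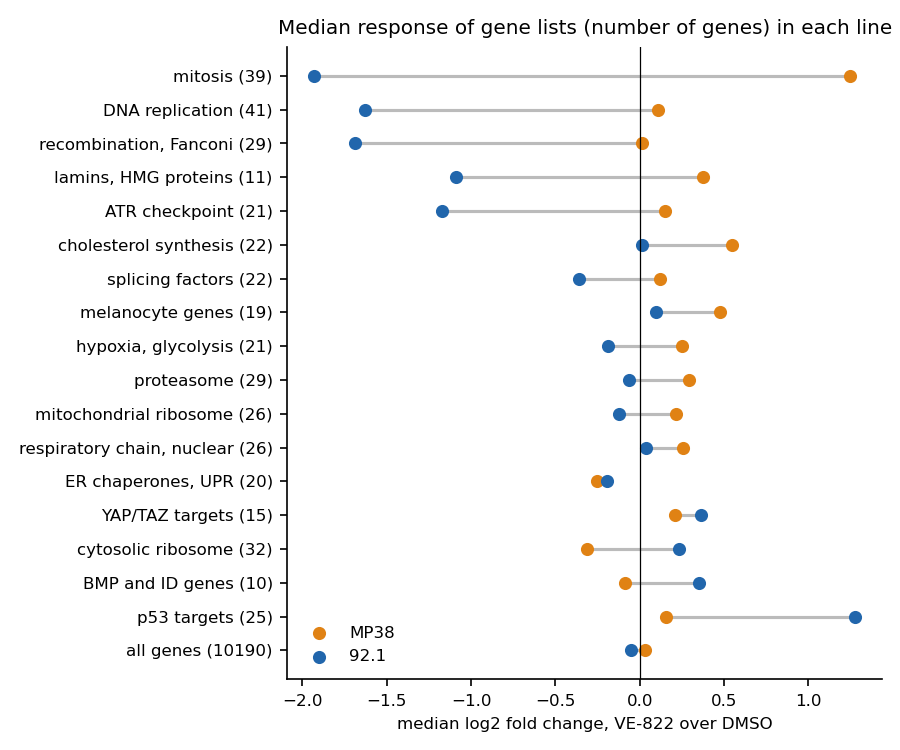
Median log2 change in MP38 and in 92.1 (points, joined by a line) for 17 gene lists and for all genes, with the number of genes measured in brackets. The mitosis list spans 1.25 in MP38 to -1.93 in 92.1, and the p53 target list lies at 0.16 and 1.28.

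Most targets of p53 rose in 92.1 and either rose less, fell or did not pass the test in MP38. Of 25 measured targets, 19 had a difference higher in 92.1, against 23.2% of the 10190 genes, 2 had one that was lower, and 4 had none called. The median change was 0.16 in MP38 and 1.28 in 92.1. By class, 8 rose in 92.1 alone, 6 rose in both and more in 1 of the lines, 6 fell in MP38 and rose in 92.1, and 3 rose alike. In the same order, these classes held 5.96%, 2.56%, 6.86% and 4.27% of the 10190 genes. Without DMSO library 3 of 92.1, 26 targets were measured, and 21 had a higher difference, against 25.1% of 10199 genes. The geometric mean of the list went from 29 to 29.6 CPM in the DMSO libraries of MP38 up to 35.9 to 37.5 with the inhibitor, and from 27.5 to 30.4 up to 73.2 to 77.8 in 92.1, so both lines began at a similar level and ended apart.

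CDKN1A, the p53 target that codes for the CDK inhibitor p21, had 9.83, 10.3 and 8.97 CPM in the DMSO and 37.1, 38.2 and 49.4 in the VE-822 libraries of MP38. In 92.1 it had 20.7, 20.7 and 16.5 CPM in DMSO and 527, 514 and 614 in VE-822. It rose in both lines, and its VE-822 libraries of 92.1 were the highest of all 12 by far. The changes were 2.10 ± 0.12 and 4.84 ± 0.12, a difference of 2.74 ± 0.16 (edgeR, adjusted p = 1.63e-09). MDM2, the ubiquitin ligase that degrades p53, had 42.3, 41.3 and 43.5 CPM in DMSO and 52, 51.7 and 48.5 in VE-822 in MP38, against 78.2, 77.4 and 65.8 in DMSO and 205, 206 and 221 in VE-822 in 92.1. It too rose in both lines, and its difference was 1.25 ± 0.09.

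Other p53 targets rose in 92.1 without a rise in MP38. PHLDA3, an inhibitor of AKT, had 13.6, 13.6 and 12.7 CPM in DMSO and 8.52, 8.78 and 9.80 in VE-822 in MP38, against 28.6, 30.3 and 25 in DMSO and 119.7, 119.7 and 128 in VE-822 in 92.1. The treated libraries were the low ones in MP38 and the high ones in 92.1, with a difference of 2.69 ± 0.10. ZMAT3, an RNA-binding protein, and PLK2, a polo-like kinase of stress responses, were opposite in the same way, at 1.92 ± 0.06 and 1.39 ± 0.06. BTG2, an antiproliferative factor, rose in 92.1 alone, from 9.58, 9.18 and 8.39 to 46.2, 44 and 50.9 CPM, against 5.29, 5.68 and 6.54 in DMSO and 6.84, 6.32 and 6.27 in VE-822 in MP38. BAX, the pore former of apoptosis, PPM1D, a phosphatase of the p53 loop, and FDXR, a mitochondrial reductase, rose in 92.1 by 1.28, 1.13 and 1.73 with 0.16, -0.03 and 0.14 in MP38. For FDXR the MP38 change was also called when VE-822 library 1 of MP38 or DMSO library 3 of 92.1 was left out.

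Of 13 measured regulators of p53, 3 had a difference higher in 92.1, 4 lower and 6 none called, near the shares of all genes, with medians of 0.17 in MP38 and -0.03 in 92.1. Without DMSO library 3 of 92.1 the number lower was 8, and the share over 10199 genes was then 48.3%. CHEK2, the checkpoint kinase of double-strand breaks, fell in 92.1 by 0.89 with 0.19 in MP38, and KAT5, an acetyltransferase, differed by -0.76 ± 0.09. CDKN2C, a CDK inhibitor of the INK4 family, rose in MP38 and fell in 92.1, at 0.63 ± 0.09 in MP38 and -1.37 ± 0.09 in 92.1.

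Of the 699 genes that fell in MP38 and rose in 92.1, 3 had log2 changes of at least 1 in size in both lines: HSPA6, ASTN2 and PLXNB3. HSPA6, an inducible member of the HSP70 family, had 20.9, 20.2 and 18.2 CPM in DMSO and 5.76, 6.48 and 5.49 in VE-822 in MP38, against 0.269, 0.270 and 0.139 in DMSO and 9.46, 8.46 and 16.8 in VE-822 in 92.1. In 92.1 it was near 0 in all 3 DMSO libraries, and it reached the level rule through its VE-822 libraries. Its difference of 7.42 ± 0.35 (edgeR, adjusted p = 1.61e-10) was the largest of the 20 opposite genes with the largest differences. Of 15 measured heat shock genes, HSPA6 included, 4 had a higher (23.2% of the 10190 genes), 3 a lower (37.2%) and 8 no called difference. Without DMSO library 3 of 92.1, 5 of 16 had a higher (25.1% of 10199 genes) and 8 a lower one (48.3%). HSPA1B, another HSP70 gene, named here after its values were seen, was opposite in the same direction, at a difference of 1.72 ± 0.33. HSP90AA1 fell in 92.1 by 0.56 with 0.06 in MP38. Reads of HSPA6 and HSPA1B can be shared with other HSP70 genes, so their counts are uncertain. ASTN2, an astrotactin, had 124, 125 and 116 CPM in DMSO and 43.7, 43.2 and 43.7 in VE-822 in MP38, against 3.25, 3.76 and 3.77 in DMSO and 8.71, 7.87 and 7.86 in VE-822 in 92.1. In 92.1 ASTN2 too reached the level rule through its VE-822 libraries, so the rule favoured a rise there. PLXNB3, a semaphorin receptor, differed by 2.35 ± 0.09.

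ENC1, an actin-binding protein of the kelch family, had 60.9, 61.5 and 67.4 CPM in DMSO and 35.8, 35.6 and 36.2 in VE-822 in MP38, against 6.32, 6.29 and 4.86 in DMSO and 28.7, 27.9 and 32.1 in VE-822 in 92.1. Its groups did not overlap, and its difference was 3.16 ± 0.12. INKA2, an inhibitor of the kinase PAK4, differed by 2.62 ± 0.10, GPR155 by 2.60 ± 0.14, and IDUA, a lysosomal hydrolase, by 2.16 ± 0.10. Replication-dependent histone genes, whose transcripts mostly lack a poly(A) tail, were nearly all too low for the level rule: 3 of 17 tested passed it. H2BC21 and H2AC6 did so in 92.1 through the VE-822 libraries, with mean DMSO levels of 0.915 and 2.02 CPM, so the rule itself favoured a rise there and their changes are a description. H2BC21 had 13.5, 13.3 and 13.6 CPM in DMSO and 10.5, 10.4 and 11.1 in VE-822 in MP38, against 0.815, 0.810 and 1.12 in DMSO and 9.84, 10.4 and 12.7 in VE-822 in 92.1, a difference of 3.91 ± 0.16. Its fall in MP38 lost its call when DMSO library 3, VE-822 library 1 or VE-822 library 2 of MP38 was left out. H2AC6 rose in both lines, by 0.50 ± 0.10 in MP38 and 3.86 ± 0.12 in 92.1, and H2BC12 rose in 92.1 alone by 2.5 ± 0.09. Histone genes have near-identical copies, so these counts are uncertain.

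Cytosolic ribosomal protein genes moved apart by small amounts. All 32 measured had a difference higher in 92.1, against 23.2% of the 10190 genes, with medians of -0.31 in MP38, 0.23 in 92.1 and 0.54 for the difference. The geometric mean was 1395, 1349 and 1423 CPM in DMSO and 1062, 1095 and 1197 in VE-822 in MP38, and 1241, 1280 and 1370 in DMSO and 1600, 1521 and 1462 in VE-822 in 92.1. Treated and control libraries of a line did not overlap. Of the 32, 26 were opposite with TMM factors, 18 with RLE factors, 19 with TMM in each line alone, 30 with library size only and 28 without DMSO library 3 of 92.1. Over all genes this opposite class held 699, 560, 584, 942 and 868 genes, in the same order. The list's count was 10 without VE-822 library 1 of 92.1, where 473 genes were in the class. It was 14 without VE-822 library 2 of 92.1, 17 without VE-822 library 2 or any 1 DMSO library of MP38, and 19 to 23 without any other library. In each of these settings that leave out 1 library, 31 of the 32 kept a called difference. RPLP0, of the ribosomal stalk, differed by 0.84 ± 0.07, RPL13 by 0.73 ± 0.08, RPS3 by 0.63 ± 0.07 and RPS19 by 0.91 ± 0.07. RPLP0 was called in MP38 alone with 7 of the 12 libraries left out in turn. Of 25 genes of ribosome assembly 5 had a higher difference in 92.1, 10 a lower one and 10 none called, near the 23.2% higher and 37.2% lower of the 10190 genes. NCL and NPM1, nucleolar proteins, differed the other way from the ribosomal proteins, by -0.83 ± 0.08 and -0.56 ± 0.06.

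Some matrix genes fell in MP38 and rose in 92.1, 4 of the 11 measured, against 6.86% of the 10190 genes. LAMA4, a laminin chain, had 236, 230.4 and 236 CPM in DMSO and 115, 116 and 119 in VE-822 in MP38, against 10.8, 10.3 and 14.6 in DMSO and 23.8, 22.6 and 22.5 in VE-822 in 92.1, a difference of 1.95 ± 0.13. The collagen chains COL9A3 and COL6A1 differed by 1.65 ± 0.15 and 0.86 ± 0.07. Of the 11 matrix genes, 6 had a higher difference in 92.1, 2 a lower one and 3 none called, with medians of -0.02 in MP38 and 0.15 in 92.1. Of 10 BMP and TGF-beta response genes, 6 had a higher difference, 1 a lower one and 3 none called, with medians of -0.09 and 0.35. Among all 10190 genes 23.2% had a higher and 37.2% a lower difference. ID3, an inhibitor of helix-loop-helix factors, had 47.2, 48.1 and 46.2 CPM in DMSO and 14, 14.4 and 13.5 in VE-822 in MP38, against 74.6, 76.6 and 48.8 in DMSO and 77.3, 76 and 79 in VE-822 in 92.1. It fell in MP38, while its groups overlapped in 92.1, where the change of 0.22 ± 0.11 was not called. It was called as opposite only when DMSO library 2 of 92.1 was left out. ID1 was opposite at 1.43 ± 0.14, and ID2 rose in 92.1 alone by 0.63.

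Among genes that changed in MP38 alone, cholesterol genes rose. Of 22 measured genes of cholesterol synthesis and uptake, 13 had a difference lower in 92.1, 1 had one that was higher and 8 had none called, against 37.2% lower and 23.2% higher among the 10190 genes. In MP38 alone 11 rose, against 10.4% of the 10190 genes. The median change was 0.55 in MP38 and 0.01 in 92.1. Their geometric mean in MP38 lay between 26.5 and 27.1 CPM without and between 41.2 and 42.2 with the inhibitor. In 92.1 it was 143, 142 and 91.8 CPM in DMSO and 131, 132 and 134 in VE-822, with DMSO library 3 below every treated library and DMSO libraries 1 and 2 above them. Without that library 16 of the 22 were opposite, higher in MP38 and lower in 92.1, and 2 rose in MP38 alone. That opposite class also grew over all genes, from 1255 of 10190 to 2068 of 10199. INSIG1, which holds back the sterol sensor SCAP, had 13.7, 14.6 and 14.3 CPM in DMSO and 48.8, 49.4 and 46.5 in VE-822 in MP38, against 187, 189 and 97.4 in DMSO and 149, 146 and 139.9 in VE-822 in 92.1. Its difference was -1.89 ± 0.24, and its 92.1 change went from -0.12 to a called -0.42 without DMSO library 3.

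Most proteasome genes also rose in MP38 and did not rise in 92.1. Of 29 proteasome subunits measured, 22 had a lower difference in 92.1 (37.2% of the 10190 genes) and 7 none called, with medians of 0.29 in MP38 and -0.06 in 92.1. Of these 29, 13 rose in MP38 alone and 7 were opposite, against 8 and 16 without DMSO library 3 of 92.1. Over the 10190 genes, 10.4% rose in MP38 alone and 12.3% were opposite in this direction. Without that library 2068 of 10199 genes were opposite in this direction. PSMA7 and PSMD14, of the core and of the lid, differed by -0.86 ± 0.07 and -0.84 ± 0.07. Of 26 mitochondrial ribosomal protein genes 20 had a lower difference in 92.1 (37.2% of the 10190 genes), with a median change of 0.21 in MP38 and -0.12 in 92.1, the reverse of the cytosolic ribosome in both lines. Of 26 nuclear genes of oxidative phosphorylation 16 had a lower difference (again beside 37.2%), among them COX6C (-0.73 ± 0.08) and UQCRC1 (-0.79 ± 0.07), and 10 had none called. Their median change was 0.26 in MP38 and 0.03 in 92.1.

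Single genes with large changes in MP38 alone included SLC26A2, a sulfate transporter, with 637, 635 and 689.8 CPM in DMSO and 176, 173 and 155 in VE-822 in MP38, against 48.1, 45 and 46.6 in DMSO and 49.3, 48.9 and 45 in VE-822 in 92.1. The level of 92.1 was low in both treatments, and the difference was 2.0 ± 0.08. SFRP1, a secreted Wnt antagonist, fell in MP38 by 1.30 with 0.11 in 92.1, and its DMSO levels were close: 173, 176 and 173 CPM in MP38 and 149, 149 and 145 in 92.1. NR4A3, an orphan nuclear receptor, rose in MP38 by 1.93 from 4.36, 4.67 and 4.49 CPM, while 92.1 had 359, 351 and 383 CPM in DMSO and 398, 389 and 389.8 in VE-822. In MP38 it reached the level rule through its VE-822 libraries, so the rule favoured a rise there. The low levels in MP38 and the high levels in 92.1 did not meet.

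Most measured pigment cell genes had a higher change in MP38 than in 92.1. Of 19 measured melanocyte genes, 12 had a difference lower in 92.1, 4 higher and 3 none called, against 37.2% lower and 23.2% higher among the 10190 genes, with medians of 0.48 in MP38 and 0.09 in 92.1. TYRP1, an enzyme of melanin synthesis, had 25.4, 26.5 and 29.7 CPM in DMSO and 75.4, 72.2 and 78 in VE-822 in MP38, against 11783, 11709 and 11664 in DMSO and 12701, 12564 and 12282 in VE-822 in 92.1. It rose in MP38 from a level far under that of 92.1, and the difference was -1.37 ± 0.07. TRPM1, a channel of pigment cells, differed by -2.20 ± 0.11. It was called higher in both lines, and in MP38 alone in 8 of the settings that leave out 1 library. PMEL, the fibril protein of melanosomes, differed by -0.51 ± 0.05, and MITF, the lineage's transcription factor, was alike, lower by 0.25 in MP38 and by 0.39 in 92.1. The fall of MITF in MP38 lost its call without DMSO library 3 or VE-822 library 3 of that line.

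Among genes that changed in 92.1 alone, MVP, the major vault protein, had 1.69, 1.56 and 1.82 CPM in DMSO and 13.4, 13.8 and 13.2 in VE-822, so it reached the level rule through the VE-822 libraries. In MP38 it stayed far higher, at 119.5, 117 and 128 CPM in DMSO and 121, 118 and 121 in VE-822, with a difference of 3.01 ± 0.08. HLA-E and HLA-C, of MHC class I, rose in 92.1 by 0.64 and 0.57, and HLA-B differed by 1.41 ± 0.11; reads of these genes can be shared. TAP1, the peptide transporter, rose in both lines with a difference of 1.60 ± 0.09. Of 12 MHC class I and loading genes 5 had a higher difference in 92.1 (23.2% of the 10190 genes), 2 a lower one (37.2%) and 5 none called, with medians of 0.04 in MP38 and 0.18 in 92.1. CYFIP2, a part of the WAVE complex, rose in 92.1 by 2.14 with -0.12 in MP38, and was called as opposite without DMSO library 3 of 92.1.

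For amino acid stress genes driven by ATF4, the values in 92.1 turned on DMSO library 3. Of 23 measured, 13 had a lower difference in 92.1 (37.2% of the 10190 genes) and 10 none called, with a median difference of -1.35. Without that library 22 were measured, 17 with a lower (48.3% of 10199 genes) and 4 with a higher difference (25.1%), and the median difference was -0.38. The median change of these ATF4 genes was 0.21 in MP38, and in 92.1 it was -0.99 with and -0.20 without DMSO library 3. The geometric mean was 35.6, 34.9 and 158 CPM in the DMSO libraries of 92.1 and 35, 34.5 and 36.1 in VE-822. SLC7A11, the cystine transporter, had 13.7, 13.6 and 265 CPM in DMSO and 7.12, 6.65 and 7.43 in VE-822 in 92.1, and 150.4, 149 and 123 and 148, 143 and 133 in MP38. Its difference of -3.79 ± 1.08 became -1.0 ± 0.09 without DMSO library 3. ASNS, asparagine synthetase, went likewise from -3.24 ± 1.03 to -0.70 ± 0.14. DDIT3, which codes for CHOP, rose in MP38 by 1.16, a call lost without DMSO library 3 of MP38, and its change in 92.1 was -0.78 with DMSO library 3 and 0.04 without it.

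Genes that changed alike were fewer, and 7 rose by at least 1 in both lines with no called difference. GADD45A, a stress-induced gene that p53 can drive, had 41.9, 41.4 and 34.2 CPM in DMSO and 148, 156 and 196 in VE-822 in MP38, against 8.18, 8.60 and 10.3 in DMSO and 33.3, 33 and 37.3 in VE-822 in 92.1. It was higher in all 3 treated libraries of each line, from different control levels, and its difference was -0.16 ± 0.15 (edgeR, adjusted p = 0.446). MYOF, a ferlin of membrane repair, had 15.5, 15.3 and 16.2 CPM in DMSO and 63.1, 62 and 69 in VE-822 in MP38, against 5.84, 5.69 and 4.66 in DMSO and 25.7, 26 and 20.9 in VE-822 in 92.1, a difference of 0.12 ± 0.13. CCN1, a matricellular protein and YAP target, differed by -0.04 ± 0.08, and FCRLA by -0.08 ± 0.16. GDF15, a stress cytokine, was alike with all libraries at a difference of 0.81 ± 0.54 (adjusted p = 0.248, edgeR), and rose more in 92.1 without DMSO library 3, at 2.13 ± 0.27 (adjusted p = 2.09e-07).

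Of the genes that fell alike, NLGN1, a synaptic adhesion protein, had 27.2, 28.3 and 31.1 CPM in DMSO and 16.4, 15.7 and 13.8 in VE-822 in MP38, against 16.8, 15.5 and 14.5 in DMSO and 9.02, 9.06 and 8.49 in VE-822 in 92.1, a difference of 0.10 ± 0.11. CSGALNACT1, an enzyme of chondroitin sulfate synthesis, differed by 0.26 ± 0.11, and the difference was called when VE-822 library 1 of 92.1 was left out. TENM3, SLCO4A1 and KIAA1549L were alike with all libraries and fell further in 92.1 than in MP38 without DMSO library 3, at -0.24 ± 0.07, -0.23 ± 0.09 and -0.28 ± 0.08.

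Immediate early and ERK output genes were mixed. Of 20 measured, 1 had a higher difference in 92.1, 8 a lower one and 11 none called, a share of lower differences near the 37.2% of the 10190 genes, with medians of 0.37 in MP38 and 0.07 in 92.1. EGR1, an immediate early factor, was the higher one: it had 58.6, 57.6 and 39.7 CPM in DMSO and 121, 119 and 143 in VE-822 in MP38, against 7.68, 6.82 and 7.87 in DMSO and 41.4, 41 and 86.9 in VE-822 in 92.1, and rose in both lines with a difference of 1.62 ± 0.32. MYC, the growth factor-responsive transcription factor, was opposite at -0.65 ± 0.08, with a change in MP38 of 0.18 ± 0.06 that lost its call in 4 of the settings that leave out 1 MP38 library. CCND1, which codes for cyclin D1, was called in neither line (0.08 ± 0.04 in MP38, -0.04 ± 0.04 in 92.1). BAP1, a tumour suppressor of uveal melanoma, had 135, 137 and 127 CPM in DMSO and 127, 126 and 134 in VE-822 in MP38, against 118, 114 and 108 in DMSO and 103, 101 and 101 in VE-822 in 92.1, with a difference of -0.11 ± 0.07 that was not called (edgeR, adjusted p = 0.21). Without DMSO library 3 of 92.1 that difference was -0.19 ± 0.05, which was called.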

How the data were processed

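RNA of the cell lines was sequenced by the authors as poly(A) libraries (NEBNext Ultra II, per the labels). Per the submitters' processing notes, featureCounts 2.0.6, STAR 2.7.11a, cutadapt 4.8, MultiQC 1.7 and FastQC 0.12.1 were used, with build GRCh38.p13. The values used are raw counts per gene that the authors deposited in 1 table for each line. Whether counting used strand is not given in the sources used here, so overlapping and antisense genes are uncertain.

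Groups came from the labels. The tables were joined by feature, and all 12 libraries were fitted in edgeR 4.0.16 (R 4.3.3, limma 3.58.1): filterByExpr with a minimum count of 10 and a minimum total of 15, TMM factors, and quasi-likelihood tests of each line's change and of the 92.1 change minus the MP38 change, with Benjamini-Hochberg adjustment over 24958 genes and calls at an adjusted p under 0.05. SE was taken from the F statistic. DESeq2 1.42.0, limma voom and the other alternatives in the closing section were run on the same counts. The fit was tested on simulated data. No library was dropped unless stated.

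The genes, lists and tests were chosen with earlier results of these data known. Genes were named by rule: the largest differences or changes of each class among protein-coding genes whose called groups do not overlap, up to 4 members of each of 38 lists by adjusted p, and 16 chosen genes, of which the text names a part. Promoter sequences are from RefSeq, build GRCh38.p14, and were matched by symbol for 8171 of 10189 symbols.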

Additional observations from a re-analysis of the deposited data

Results flagged for a closer look

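The interaction test called a different response in the lines for 1255 genes that rose in MP38 and fell in 92.1 and for 699 that fell in MP38 and rose in 92.1. Among the named genes, 23 had a called difference (92.1 change minus MP38 change, log2) of at least 3 in size.

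Of these, 18 were lower in 92.1. TXNIP, the thioredoxin-binding arrestin, differed by -5.14. Genes of mitosis and proliferation among them were CENPE (-3.92), KIF20A (-3.65), SPC25 (-3.64), NCAPG (-3.60), BUB1 (-3.59), SKA1 (-3.53), CDC25C (-3.45), MKI67 (-3.39), TPX2 (-3.21) and PLK1 (-3.20). DEPDC1 (-3.74), IQGAP3 (-3.57) and CDCA2 (-3.51) lay in the same range. SPC25 had under 5 CPM in the DMSO libraries of MP38 and the VE-822 libraries of 92.1, so the level rule favoured its changes. TK1 (-3.33) serves replication and MYBL2 (-3.03) is a factor of the mitotic wave. SLC7A11 (-3.79) and ASNS (-3.24) were at -1.0 ± 0.09 and -0.70 ± 0.14 without DMSO library 3 of 92.1.

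The other 5 were higher in 92.1: HSPA6 (7.42), the histone genes H2BC21 (3.91) and H2AC6 (3.36), ENC1 (3.16) and MVP (3.01). HSPA6, H2BC21, H2AC6 and MVP had under 5 CPM in the DMSO libraries of 92.1 and reached the level rule there through VE-822, so the rule favoured a rise in them.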

How the results depend on the processing

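No called difference of a named gene changed sign under any setting tried. Of the counts of classes and calls, 12 moved by over 1.5 times, while 172 planned ones and 6 chosen after seeing the data did not. Of the log2 values of single genes that were followed over the settings, mostly the difference between lines, 11 lost their call, 2 gained one and 4325 did neither. Calls within a line moved more often: of 203 named genes, 73 had another class in at least 1 setting that leaves out 1 library. With at least 20 CPM in each line, 1043 genes changed in 92.1 alone and 421 fell in MP38 and rose in 92.1. With calls that also needed a log2 change of 0.5, 873 changed in 92.1 alone, 769 in MP38 alone, 83 alike, 36 the same way unequally, and 204 and 67 were opposite. With limma voom and a weight per library, 1098 fell in MP38 and rose in 92.1 and 1252 changed unequally. Leaving out 1 library at a time gave 1152 to 2068 genes that rose in MP38 and fell in 92.1, 473 to 868 for the reverse, 890 to 1161 alike, 386 to 1152 unequal, 1537 to 1933 in 92.1 alone and 1513 to 1990 in MP38 alone, and 4431 to 5897 higher and 4473 to 6015 lower differences over all genes tested. Replicate numbers did not pair the libraries (same-numbered correlations of -0.28 to -0.08 in MP38 and 0.06 to 0.09 in 92.1), and a replicate block gave 5315 higher and 4566 lower differences, 1212 and 674 opposite, 925 alike, 489 unequal, 1647 in 92.1 alone and 1824 in MP38 alone. The share of difference calls that were higher in 92.1 was 54% with TMM factors and 62.0% with library size only, and fell under that of lower calls with RLE factors (49.1%), TMM in each line alone (49.9%) and DESeq2 (49%). It was 47.8% to 53.3% without 1 library, with 49.5% without DMSO library 3 of 92.1 and 47.8% without VE-822 library 1 of 92.1. The cause of these moves was not tested. Depth differed by line, so genes near 5 CPM have fewer counts in MP38.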

Other observations

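Splicing factors split between the lines. Of 22 SR and hnRNP genes, 17 had a difference lower in 92.1 (37.2% of the 10190 genes), 1 higher (23.2%) and 4 none called, with medians of 0.12 in MP38 and -0.36 in 92.1. HNRNPD, an RNA-binding protein of mRNA decay, had 225, 220.2 and 224 CPM in DMSO and 310.0, 323 and 322 in VE-822 in MP38, against 524, 543 and 450.2 in DMSO and 338, 330.4 and 299.8 in VE-822 in 92.1, and differed by -1.16 ± 0.09. SRSF1 and HNRNPC, factors of splice site choice, differed by -1.12 ± 0.10 and -0.85 ± 0.07. Of 21 genes of glycolysis and hypoxia, 12 had a lower difference in 92.1, 2 a higher one and 7 none called, beside the same shares. The glycolytic enzymes PGAM1, TPI1 and PFKP differed by -0.85 ± 0.09, -0.79 ± 0.08 and -0.65 ± 0.07. Of 17 antioxidant genes of the NRF2 pathway, 10 had a lower difference (again beside 37.2%), 1 a higher one (23.2%) and 6 none called, and NFE2L2, which codes for NRF2, differed by -0.82 ± 0.11. TXNRD1, thioredoxin reductase, differed by -0.88 ± 0.10.

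Other groups were mixed, beside 23.2% higher and 37.2% lower differences among the 10190 genes. Lysosomal genes had 4 higher, 10 lower and 9 uncalled differences of 23, autophagy genes 5, 5 and 8 of 18, YAP and TAZ targets 4, 3 and 8 of 15, and BCL2 family genes and caspases 6, 8 and 7 of 21. Without DMSO library 3 of 92.1 the lower differences were 14 for lysosomal genes, 8 for autophagy genes, 5 for YAP and TAZ targets and 11 for BCL2 family genes and caspases. The share over 10199 genes was then 48.3%. The higher ones were 6, 6, 5 and 6, beside 25.1%. The survival factor BCL2 had 27.1, 26.6 and 26.2 CPM in DMSO and 38.5, 40 and 38.7 in VE-822 in MP38, against 192, 187 and 257 in DMSO and 176, 172 and 165 in VE-822 in 92.1, a difference of -0.86 ± 0.13. MCL1, another survival factor, rose in MP38 by 0.71 with 0.01 in 92.1. Of 13 mitochondrially encoded genes, 7 had a lower and 2 a higher difference, and MT-CYB, a subunit of complex III, differed by 0.70 ± 0.06.

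The 270 long noncoding RNAs among the genes had median changes of -0.06 in MP38 and 0.11 in 92.1, against 0.03 and -0.05 for 9746 protein-coding genes. Of these RNAs 38 (14.1%) fell in MP38 and rose in 92.1 and 10 (3.7%) did the reverse, against 633 (6.49%) and 1240 (12.7%) protein-coding genes. Outside the level rule, 1008 tested genes reached 5 CPM in 92.1 alone, of which 320 rose and 227 fell there, and 1154 did in MP38 alone, of which 302 rose and 354 fell. Among the 10190 genes, 22% rose and 34.4% fell in 92.1, and 32.4% rose and 25.2% fell in MP38.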
